A study of Homo sapiens with 9 samples.

Results

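The transcripts of 10 genes that handle iron, ferritin and heme were followed in MDA-MB-231 cells, an established human breast adenocarcinoma line, after 48 h of treatment with 1 of 3 herbal injections. The genes were taken by symbol from a list of iron and heme metabolism genes. They were FTL and FTH1 (ferritin light and heavy chain), TFRC (transferrin receptor), SLC11A2 (the iron importer DMT1), SLC40A1 (the iron exporter ferroportin), ACO1 (iron regulatory protein IRP1), HMOX1 (heme oxygenase), BLVRA and BLVRB (biliverdin reductases) and FECH (ferrochelatase). All 10 were found among the 24344 genes of the count table, and all 10 were among the 14195 genes abundant enough to be tested.

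The groups were cells given Compound Kushen Injection (CKI), made from the herbs Kushen and Baituling, cells given Kushen injection and cells given Baituling injection, with 3 libraries each. CKI was used at 2.0 mg/mL of total alkaloids per the labels and the study's methods, and the single injections at the equivalent dilution. All 9 libraries came from this 1 cell line in serum-containing medium, and with no untreated library analysed here each value below compares 1 injection with another. The study set these groups side by side to find what each herb contributes to the combined injection. The design text calls the 3 libraries of a group biological replicates, without saying how the cultures were separated.

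The total count was 20144628 to 23782071 per library. Line markers were chosen for a mesenchymal-like, hormone receptor negative breast line. VIM (336 to 2120 CPM), CD44, EGFR, CAV1 and MSN, chosen as present, were abundant. Among those chosen as absent or low, ESR1 and PGR had at most 4 counts in a library and CDH1 reached 2.82 CPM. GATA3, also chosen as absent or low, was detected at 7.69 to 24.8 CPM. CPM is the count of a gene relative to the library size scaled by TMM, which compares libraries through their typical genes. Counts come from whole cultures, so a change in every cell and a change in the share of cells that carry a transcript cannot be told apart.

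Cells take up iron bound to transferrin through the transferrin receptor, move it into the cytosol through SLC11A2, store the surplus in ferritin shells built from heavy and light chains, and export it through ferroportin. Iron regulatory proteins, of which ACO1 is one, bind a hairpin called the iron-responsive element when iron is scarce. In the 5′ UTR of ferritin and ferroportin mRNAs this binding blocks translation, and in the 3′ UTR of the transferrin receptor mRNA it stabilises the message. Heme is made in a pathway that ends with FECH and is broken down by HMOX1 to iron, carbon monoxide and biliverdin, which biliverdin reductases turn into bilirubin. HMOX1 and both ferritin genes are textbook targets of the transcription factor NRF2 and its heme-sensing competitor BACH1.

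The iron-responsive elements found in these genes are shown because they are the hairpins through which iron regulatory proteins act on ferritin, ferroportin and transferrin receptor mRNAs. The annotated canonical transcript of each gene on build GRCh37 was searched for a C, 5 bases, the loop CAGTG followed by a base other than G, and 5 bases able to pair with the first 5. Of 19894 coding transcripts 0.94% held such a run. It was found in 4 of the 10 genes, at 7 places. The loop is in capitals, bases are written as DNA in the sense of the mRNA, and 6 bases are shown on each side of the searched run.
FTL 5′ UTR, plus strand of chr19:49468592-49468620: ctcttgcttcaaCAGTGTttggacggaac
FTH1 5′ UTR, minus strand of chr11:61735046-61735074: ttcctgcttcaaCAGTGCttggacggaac
SLC40A1 5′ UTR, minus strand of chr2:190445387-190445415: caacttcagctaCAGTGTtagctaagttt
TFRC 3′ UTR site 1, minus strand of chr3:195777850-195777878: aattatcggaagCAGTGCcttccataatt
TFRC 3′ UTR site 2, minus strand of chr3:195777446-195777474: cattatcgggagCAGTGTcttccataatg
TFRC 3′ UTR site 3, minus strand of chr3:195777381-195777409: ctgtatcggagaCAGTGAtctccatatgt
TFRC 3′ UTR site 4, minus strand of chr3:195777334-195777362: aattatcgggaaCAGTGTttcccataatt
The FTL and FTH1 elements had the same 5 bases on each side of the loop. No match was found in SLC11A2, ACO1, HMOX1, BLVRA, BLVRB or FECH, which says only that this strict pattern was not in those canonical transcripts. Elements that depart from the pattern would likewise be missed in the 4 genes with a match, so the sites shown may not be all.

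Ferritin light chain was the most abundant of the 10 transcripts in every library, and it differed most from Baituling. FTL (ENSG00000087086, chromosome 19, 49468566 to 49470136, plus strand) encodes the chain that favours iron mineral formation inside the ferritin shell. It stood at 3972, 4142 and 4416 CPM in the CKI libraries, at 5292, 5252 and 5312 CPM in the Kushen libraries and at 1604, 1430 and 1455 CPM in the Baituling libraries. No group overlapped another, and Kushen was highest. FTL was the gene with the second highest count in each CKI library and with the third highest in each Kushen library, but ranked between 60 and 63 in the Baituling libraries. Its log2 fold change was 1.82 ± 0.05 (SE) in Kushen against Baituling (edgeR adjusted p 7.86e-17), a 3.53-fold higher level. It was 1.48 ± 0.05 in CKI against Baituling (edgeR adjusted p 8.11e-16) and -0.34 ± 0.05 in CKI against Kushen (edgeR adjusted p 1.22e-05).

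Ferritin heavy chain, which carries the ferroxidase centre that oxidises iron for storage, moved the same way by a smaller amount. FTH1 (ENSG00000167996, chromosome 11, 61727190 to 61735106, minus strand) was measured at 686, 690 and 716 CPM in CKI, at 796, 803 and 802 CPM in Kushen and at 397, 401 and 386 CPM in Baituling. The groups again did not overlap. The log2 fold change was 1.02 ± 0.04 in Kushen against Baituling (edgeR adjusted p 1.32e-14), just past the fold threshold of the study, which is a log2 fold change above 1 or below -1. It was 0.82 ± 0.04 in CKI against Baituling (edgeR adjusted p 2.30e-13) and -0.20 ± 0.04 in CKI against Kushen (edgeR adjusted p 0.000343). The annotation holds 25 FTH1 and 16 FTL pseudogenes, of which 1 was in the count table, with no counts. Since the handling of reads that fit several places is not given in the sources used here, the level of both ferritin genes is uncertain, and FTH1 also overlaps the coding gene BEST1 on the opposite strand.

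**Figure D1:**
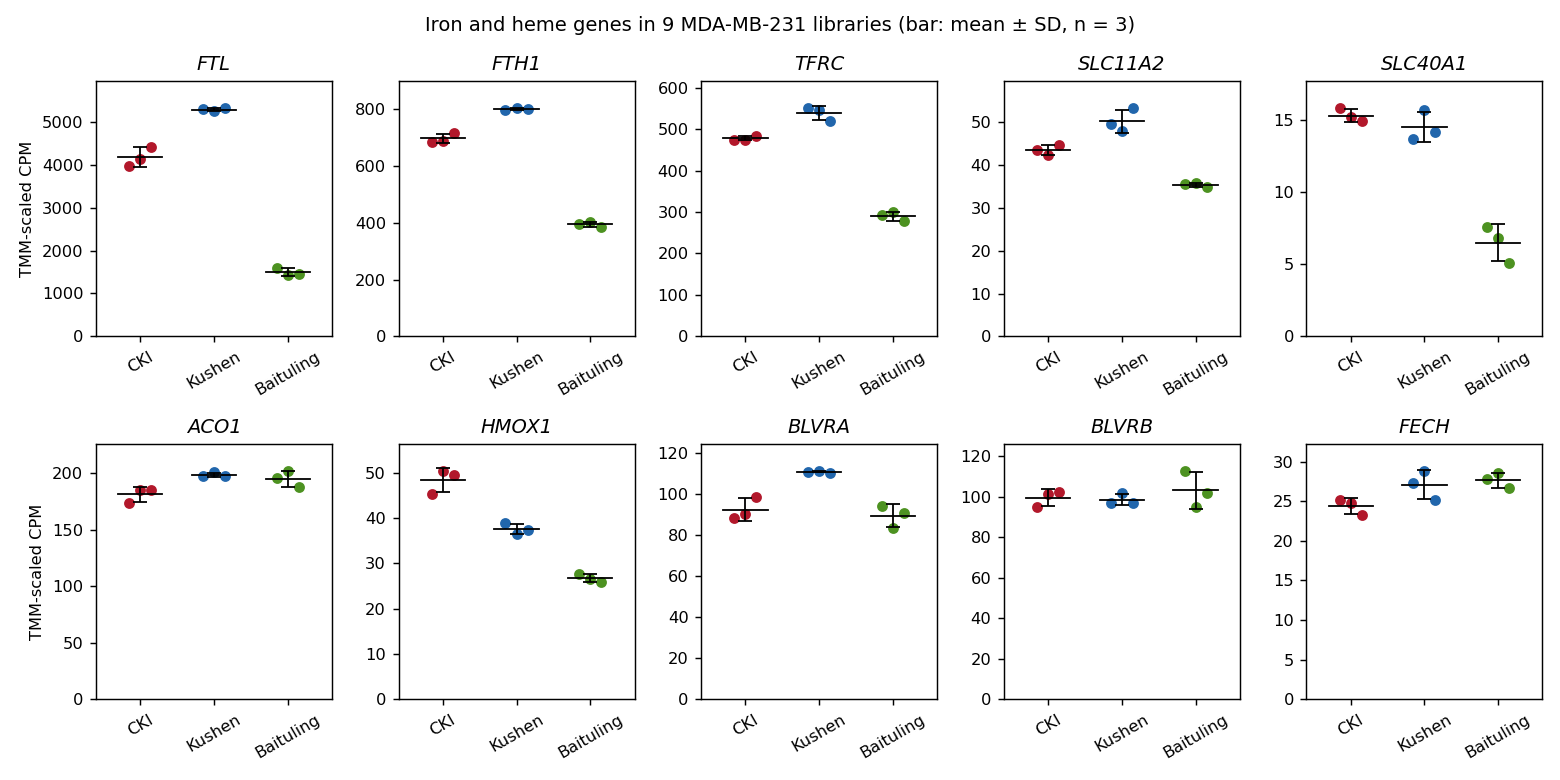
TMM-scaled CPM (linear axes from 0) of each of the 10 genes in the 3 CKI, 3 Kushen and 3 Baituling libraries, with points for libraries and black bars for the mean ± SD. FTL, FTH1, TFRC and SLC11A2 are highest in Kushen and lowest in Baituling without overlap, HMOX1 is highest in CKI, and BLVRB lies between 94.7 and 113 CPM in every library.

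The ratio of the counts of the chains within a library does not depend on how libraries are scaled. It may depend on how reads that also fit pseudogenes were handled, which is not given in the sources used here. The same holds for every ratio or share of ferritin counts below. Per 100 FTL counts there were 17.3, 16.7 and 16.2 FTH1 counts in CKI, 15.1, 15.3 and 15.1 in Kushen and 24.8, 28.1 and 26.5 in Baituling. The log2 ratio differed by -0.80 between Kushen and Baituling and by -0.66 between CKI and Baituling, with no overlap between groups. The ratio of CKI lay above that of Kushen by 0.14. In each of these comparisons the exact two-sided permutation p was 0.1, the smallest that 3 libraries against 3 can give. Together the ferritin chains made up 70.2% to 71.6% of the counts of the 10 genes in Baituling libraries, and 82.9% to 85.3% in CKI and Kushen libraries.

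The transferrin receptor, the main route of iron into cells and a transcript that iron-responsive elements stabilise when iron is low, was also higher in both groups that received Kushen. TFRC (ENSG00000072274, chromosome 3, 195739382 to 195809024, minus strand) was found at 475, 475 and 483 CPM in CKI, at 550.0, 547 and 519 CPM in Kushen and at 294, 299 and 278 CPM in Baituling. Groups did not overlap. Its log2 fold change was 0.89 ± 0.04 in Kushen against Baituling (edgeR adjusted p 3.30e-13), 0.72 ± 0.04 in CKI against Baituling (edgeR adjusted p 5.84e-12) and -0.17 ± 0.04 in CKI against Kushen (edgeR adjusted p 0.00215). None of these passed the fold threshold, although library totals in place of TMM gave 1.104 and 1.005 in the contrasts with Baituling. The receptor and the ferritin chains thus rose together in both contrasts with Baituling, but not by the same amount. TFRC had 14.7, 16.3 and 15.1 counts per 100 ferritin counts (FTH1 plus FTL) in Baituling libraries, 10.2, 9.83 and 9.42 in CKI libraries and 9.03, 9.03 and 8.49 in Kushen libraries. The difference in log2 ratio was -0.80 for Kushen against Baituling and -0.65 for CKI against Baituling (exact permutation p 0.1 each). TFRC overlaps only pseudogenes and noncoding genes on the opposite strand.

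**Figure D2:**
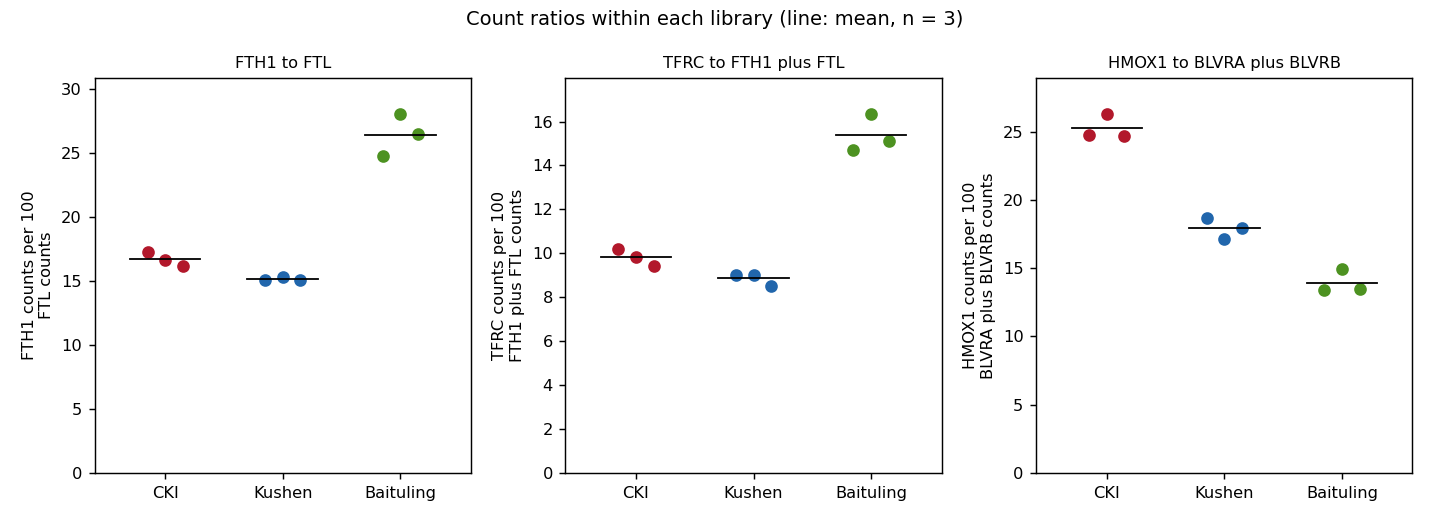
Counts of FTH1 per 100 FTL counts, of TFRC per 100 counts of FTH1 plus FTL and of HMOX1 per 100 counts of BLVRA plus BLVRB (linear axes from 0) in each library, with a line at the mean of 3. Baituling libraries are highest in the first 2 ratios (24.8 to 28.1 and 14.7 to 16.3) and lowest in the last (13.4 to 14.9).

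SLC11A2, which carries iron out of endosomes and across the cell membrane, followed the order of TFRC. SLC11A2 (ENSG00000110911, chromosome 12, 51373184 to 51422349, minus strand) was at 43.5, 42.4 and 44.7 CPM in CKI, at 49.5, 47.9 and 53.2 CPM in Kushen and at 35.6, 35.7 and 34.9 CPM in Baituling. The 3 groups were separate. It rose by 0.50 ± 0.06 in Kushen against Baituling (log2, edgeR adjusted p 1.01e-07) and by 0.30 ± 0.06 in CKI against Baituling (edgeR adjusted p 7.07e-05). It was lower in CKI than in Kushen, with a log2 fold change of -0.20 ± 0.05 (edgeR adjusted p 0.00429), a call that library totals did not give (adjusted p 0.0559). Its mRNA isoforms with and without an iron-responsive element are not separated in counts per gene.

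Ferroportin, the exporter, was the lowest transcript of the set in Baituling per kilobase and showed the second largest rise. SLC40A1 (ENSG00000138449, chromosome 2, 190425316 to 190448484, minus strand) had 402, 376 and 377 counts in the CKI libraries, 339, 381 and 319 in the Kushen libraries and 155, 124 and 92 in the Baituling libraries, or 15.3 ± 0.452, 14.5 ± 1.03 and 6.48 ± 1.27 CPM (SD, n = 3). Baituling lay apart, while CKI and Kushen overlapped. The log2 fold change was 1.15 ± 0.11 in Kushen against Baituling (edgeR adjusted p 1.94e-08) and 1.23 ± 0.11 in CKI against Baituling (edgeR adjusted p 5.02e-09). In CKI against Kushen it was 0.08 with a 95% interval from -0.12 to 0.28 (edgeR adjusted p 0.55). SLC40A1 was the only importer or exporter of the 3 for which CKI was not below Kushen past the test.

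ACO1 encodes the iron sensor that alternates between a cytosolic aconitase and an RNA-binding repressor, a switch that transcript counts do not show. ACO1 (ENSG00000122729, chromosome 9, 32384601 to 32454767, plus strand) averaged 182 ± 6.63 CPM in CKI, 199 ± 1.80 CPM in Kushen and 195 ± 7.12 CPM in Baituling (SD, n = 3). It was slightly lower in CKI, with log2 fold changes of -0.13 ± 0.04 against Kushen (edgeR adjusted p 0.019) and -0.10 ± 0.04 against Baituling (edgeR adjusted p 0.0333). In Kushen against Baituling the difference was 0.03 with a 95% interval from -0.06 to 0.12. These small differences depended on the scaling: under library totals ACO1 was higher than in Baituling by 0.18 in CKI and 0.24 in Kushen, and the difference between CKI and Kushen had an adjusted p of 0.277. Leaving out CKI replicate 1 or Kushen replicate 2 ended the call against Kushen (-0.10 and -0.12), and leaving out CKI replicate 1, Baituling replicate 1 or Baituling replicate 2 ended the call against Baituling (-0.08, -0.10 and -0.08), as did upper quartile scaling (-0.03) and a minimum of 10 counts in every library (-0.06).

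HMOX1, the inducible enzyme that opens the heme ring, was the only one of the 10 genes that was higher in CKI than in Kushen past the test. HMOX1 (ENSG00000100292, chromosome 22, 35776354 to 35790207, plus strand) was at 45.4, 50.4 and 49.6 CPM in CKI, at 38.9, 36.6 and 37.3 CPM in Kushen and at 27.7, 26.6 and 25.9 CPM in Baituling. The 3 groups did not overlap. Against Baituling it rose by 0.86 ± 0.06 in CKI (log2, edgeR adjusted p 9.63e-11) and by 0.49 ± 0.06 in Kushen (edgeR adjusted p 5.65e-07). CKI was above Kushen by 0.36 ± 0.06 (edgeR adjusted p 4.05e-05). The 1.81-fold difference between CKI and Baituling stayed under the fold threshold, but passed it under library totals (1.14). In ferritin, by contrast, CKI was below Kushen.

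The biliverdin reductases, which act just after HMOX1, did not share its order of groups. BLVRA (ENSG00000106605, chromosome 7, 43798279 to 43846941, plus strand) encodes the main adult enzyme. It was at 88.4, 90.3 and 98.9 CPM in CKI, at 111, 111 and 111 CPM in Kushen and at 94.5, 83.6 and 90.9 CPM in Baituling. Kushen stood above both other groups, by 0.31 ± 0.05 over Baituling (log2, edgeR adjusted p 2.78e-05), and CKI was below Kushen with -0.26 ± 0.05 (edgeR adjusted p 0.00044). CKI and Baituling overlapped, and their difference was 0.05 with a 95% interval from -0.06 to 0.15 (edgeR adjusted p 0.445), although library totals gave 0.33 and upper quartile scaling gave 0.12 with adjusted p under the threshold.

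BLVRB (ENSG00000090013, chromosome 19, 40953672 to 40971671, minus strand) encodes the reductase that also works as a flavin reductase. It averaged 99.4 ± 4.12 CPM in CKI, 98.5 ± 2.69 CPM in Kushen and 103 ± 8.99 CPM in Baituling (SD, n = 3), and all groups overlapped. The log2 difference from Baituling was -0.05 for CKI (95% interval -0.17 to 0.06) and -0.07 for Kushen (95% interval -0.18 to 0.05), and CKI against Kushen gave 0.01 (95% interval -0.10 to 0.13). Under library totals the differences with Baituling were 0.23 and 0.15, so their sign was set by the scaling. Within libraries there were 24.8, 26.3 and 24.7 HMOX1 counts per 100 BLVRA plus BLVRB counts in CKI, 18.7, 17.2 and 18.0 in Kushen and 13.4, 14.9 and 13.5 in Baituling. Without overlap, the log2 ratio of CKI exceeded that of Kushen by 0.49 and that of Baituling by 0.86, and Kushen exceeded Baituling by 0.37 (exact permutation p 0.1 each).

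FECH, the mitochondrial enzyme that inserts iron into protoporphyrin, changed little. FECH (ENSG00000066926, chromosome 18, 55211609 to 55253964, minus strand) was at 25.2, 24.8 and 23.3 CPM in CKI, at 27.2, 28.8 and 25.2 CPM in Kushen and at 27.8, 28.5 and 26.6 CPM in Baituling. CKI was lower than Baituling by a log2 fold change of -0.18 ± 0.07 (edgeR adjusted p 0.0199), which library totals turned to 0.11 and which lost the call without CKI replicate 3 (-0.15) or Baituling replicate 2 (-0.16), under upper quartile scaling (-0.11) and with a minimum of 10 counts in every library (-0.14). The difference between CKI and Kushen was -0.15 (95% interval -0.29 to -0.02) with an edgeR adjusted p of 0.0714, but it passed without Kushen replicate 3 (-0.21, adjusted p 0.0204) and with DESeq2 size factors in edgeR (-0.17). In Kushen against Baituling it was -0.03 (95% interval -0.17 to 0.11).

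Levels of different genes were compared as CPM per kilobase of canonical transcript. In Kushen libraries FTL led with a mean of 6070 CPM per kilobase, followed by FTH1 with 665, BLVRB with 123, TFRC with 107, BLVRA with 103, ACO1 with 26.7, HMOX1 with 24.2, SLC11A2 with 12.2, SLC40A1 with 4.35 and FECH with 3.52. Only TFRC and BLVRA overlapped among neighbours in that order. In Baituling libraries FTL reached 1720 and FTH1 328, BLVRA (83.5) stood above TFRC (57.9), and FECH (3.59) above SLC40A1 (1.95). In CKI libraries HMOX1 (31.2) stood above ACO1 (24.4), the reverse of the other groups. The lengths are those of the annotation, not of the isoforms these cells make. The levels of FTL and FTH1 carry the uncertainty from pseudogenes given above, and so does the gap between them.

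Taken by comparison, the largest differences lay between the groups with and without Kushen. In Kushen against Baituling 7 of the 10 genes were higher and 0 lower with an adjusted p under 0.05 in edgeR's quasi-likelihood test. Over all genes tested 71.6% passed that threshold, 35.6% higher and 36.1% lower. None of the other 3 was lower at an unadjusted p under 0.05 or in DESeq2. FTL, SLC40A1 and FTH1 also passed the fold threshold, as did 15.2% of all genes (8.5% higher and 6.73% lower). The median log2 fold change was 0.50 for the 10 genes and 0.02 for all genes. Groups did not overlap for 7 of the 10, against 73.1% of all genes. The number that passed the p threshold was therefore near the background, while all 7 calls were higher. Library totals gave 10 higher, with 50.6% of all genes higher and 24.6% lower.

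In CKI against Baituling 6 genes were higher and 2 lower (FECH and ACO1), where 76.1% of all genes passed, 39.1% higher and 37% lower. FTL and SLC40A1 passed the fold threshold, against 19.1% of all genes (11.2% higher and 7.91% lower), and library totals added FTH1, TFRC and HMOX1. The split of calls became 9 higher and 0 lower under library totals, with 57% of all genes higher and 22.6% lower, and 7 higher and 0 lower under upper quartile scaling, with 43.4% higher and 33% lower. The median was 0.51 against 0.03 for all genes, and the groups did not overlap for 8 of the 10, against 78.3%. In CKI against Kushen 1 gene was higher (HMOX1) and 6 were lower (FTL, BLVRA, SLC11A2, FTH1, TFRC and ACO1). Of all genes 39.8% passed, 19.6% higher and 20.2% lower. None of the 10 passed the fold threshold in this contrast in edgeR or under any of the 18 alternatives, against 1.9% of all genes (1.7% higher and 0.197% lower). The median was -0.16 against 0.01, and 8 of the 10 did not overlap, against 49.5%. The contrasts share libraries, so their values are not independent of each other.

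**Figure D3:**
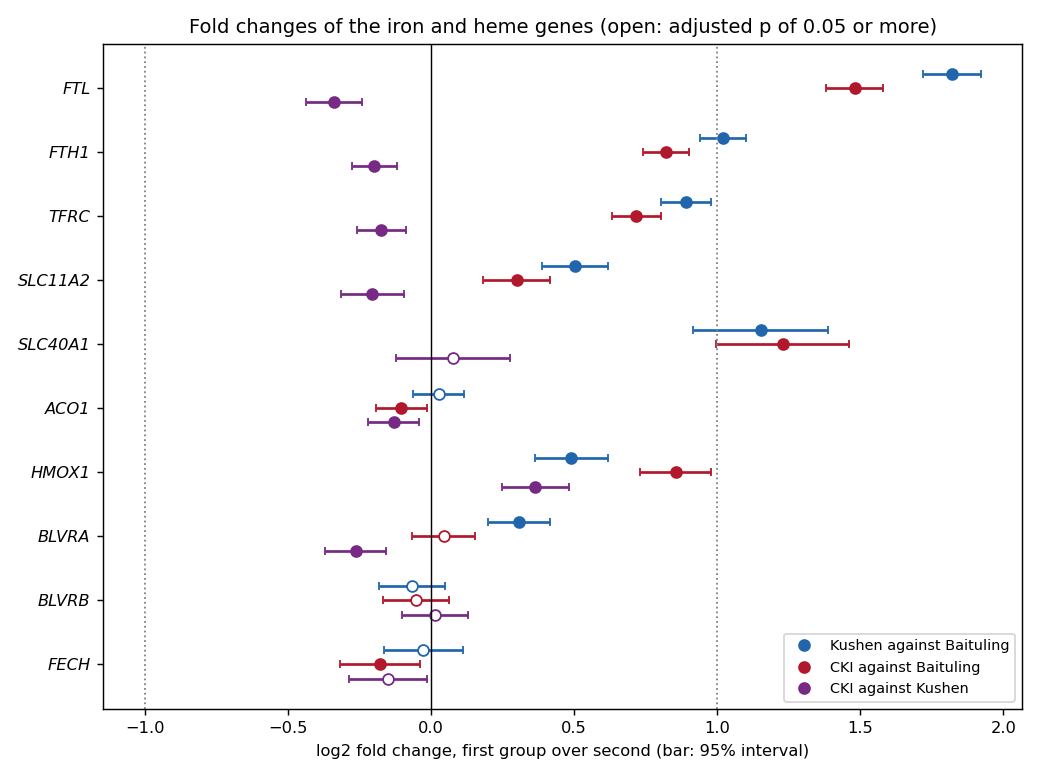
Log2 fold changes of the 10 genes with 95% intervals from edgeR's quasi-likelihood fit in the 3 contrasts, with open symbols for an adjusted p of 0.05 or more and dotted lines at 1 and -1. FTL reaches 1.82 in Kushen against Baituling, and HMOX1 at 0.36 is the only filled symbol right of 0 in CKI against Kushen.

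A further 88 genes of iron and heme metabolism in 8 lists were followed in the same fit, of which 86 were in the table and 75 were tested. In Kushen against Baituling 27 of the 75 were higher and 33 lower (80% passed, background 71.6%), with a median of -0.06. CKI gave 26 higher and 33 lower against Baituling (median -0.07), and 12 higher and 17 lower against Kushen (median 0.01). These shares of calls, 78.7% and 38.7%, lay beside 76.1% and 39.8% of all genes, so the lists as a whole were near the background. Their split depended on the scaling, as did that of all genes. Library totals gave 40 higher and 24 lower in Kushen against Baituling, where 50.6% of all genes were then higher and 24.6% lower. They gave 43 higher and 24 lower for CKI against Baituling (57% and 22.6% of all genes), and 27 higher and 11 lower for CKI against Kushen (29.7% and 12.9%). The counts of the single lists below are to be read against 71.6%, 76.1% and 39.8% of all genes passing in Kushen against Baituling, in CKI against Baituling and in CKI against Kushen, with higher and lower calls nearly even under TMM. Genes with at most 12 counts in any library, such as HAMP (hepcidin), TF (transferrin), CP (ceruloplasmin) and FTMT (mitochondrial ferritin), were not tested. NCOA4 and BOLA2 were not analysed here.

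Of 10 heme synthesis genes tested, 5 were higher and 4 lower in Kushen against Baituling, 3 higher and 5 lower in CKI against Baituling, and 1 higher and 3 lower in CKI against Kushen. Library totals gave 7 and 1, 6 and 2, and 5 and 3 in the same order. ALAS1, the rate-limiting first enzyme, was the one higher in CKI than in Kushen: CKI libraries averaged 207 ± 5.10 CPM, Kushen libraries 141 ± 6.19 CPM and Baituling libraries 121 ± 6.19 CPM (SD, n = 3). CKI exceeded Kushen by 0.55 ± 0.05 (log2, edgeR adjusted p 3.36e-08) and Baituling by 0.77 ± 0.05, and Kushen exceeded Baituling by 0.22 ± 0.05, the order of groups also seen for HMOX1. UROD, which acts in the middle of the pathway, fell most, from 147 ± 9.12 CPM in Baituling to 73.5 ± 2.04 in Kushen and 76.0 ± 3.50 in CKI (log2 fold changes -0.997 ± 0.05 and -0.95 ± 0.05). CPOX had the largest rise in Kushen against Baituling (0.46 ± 0.04), and UROS the largest fall in CKI against Kushen (-0.39 ± 0.05). UROD overlaps a coding gene on the opposite strand.

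Among 9 heme carriers, including the constitutive oxygenase HMOX2, 5 were higher and 1 lower in Kushen against Baituling. CKI gave 6 higher and 1 lower against Baituling, and 2 higher against Kushen. Under library totals the counts were 7 and 1, 8 and 1, and 6 higher in the same order. All genes also moved higher under library totals, with 50.6%, 57% and 29.7% of them called higher. ABCG2, an efflux pump that also exports porphyrins and many drugs, rose most: Baituling libraries averaged 3.09 ± 0.192 CPM, Kushen libraries 11.9 ± 0.929 CPM and CKI libraries 17.5 ± 0.317 CPM. The log2 fold change against Baituling was 2.504 ± 0.10 for CKI (edgeR adjusted p 4.32e-14) and 1.94 ± 0.11 for Kushen (edgeR adjusted p 6.37e-12). FLVCR2 rose most in CKI against Kushen (0.94 ± 0.20). PGRMC1, a heme-binding protein, had the largest fall against Baituling (-0.47 ± 0.05 in Kushen, -0.42 ± 0.05 in CKI). HMOX2 did not pass the test in any contrast, with log2 fold changes between -0.08 and 0.01, and library totals turned both negative values to 0.21 in CKI and 0.13 in Kushen against Baituling. FLVCR2 and HMOX2 overlap a coding gene on the opposite strand, and FLVCR2 also overlaps TTLL5 on the same strand.

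Of 9 genes of iron uptake and reduction, all passed in both contrasts with Baituling, 3 higher and 6 lower in each, and 2 were higher and 4 lower in CKI against Kushen. Library totals gave 3 higher and 5 lower in Kushen and 3 higher and 6 lower in CKI against Baituling, and 2 each way in CKI against Kushen. LCN2, which binds iron-carrying siderophores and is part of the innate immune response, fell most, from 14.8 ± 1.24 CPM in Baituling to 1.32 ± 0.292 in Kushen and 2.24 ± 0.506 in CKI. Its log2 fold changes were -3.48 ± 0.16 and -2.72 ± 0.14 (edgeR adjusted p 3.13e-13 and 1.75e-12). CKI exceeded Kushen by 0.75 ± 0.21, a call that was lost without CKI replicate 2 (0.56, adjusted p 0.0619). The largest rises against Baituling were those of SLC39A14, a metal importer (0.70 ± 0.04 in CKI), and STEAP2, a metalloreductase (0.79 ± 0.12 in Kushen). STEAP3, the endosomal ferrireductase, had the largest fall in CKI against Kushen (-0.42 ± 0.05). TFRC rose in both contrasts with Baituling, in which 6 of these 9 genes fell.

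Of 8 genes of iron sensing and the hepcidin axis, 5 were higher and 2 lower in each contrast with Baituling, and 1 was higher and 2 lower in CKI against Kushen. Library totals gave 6 higher and 2 lower in each contrast with Baituling, and 2 higher and 1 lower in CKI against Kushen. IREB2, the second iron regulatory protein, was higher than in Baituling by 0.24 ± 0.06 in Kushen and 0.34 ± 0.06 in CKI (log2, edgeR adjusted p 0.000998 and 2.24e-05), whereas FBXL5, which marks it for degradation, gave 0.02 ± 0.04 and -0.06 ± 0.04 and did not pass. In CKI against Kushen IREB2 gave 0.10 ± 0.05 and FBXL5 -0.08 ± 0.04, neither past the test. Under library totals FBXL5 gave 0.23 in both contrasts with Baituling and passed in each. IREB2 then also passed in CKI against Kushen (0.17). ERFE, known as a hormone from erythroid cells, had the largest fall against Baituling (-1.41 ± 0.12 in Kushen, -1.20 ± 0.11 in CKI), and HFE the largest fall in CKI against Kushen (-0.53 ± 0.08). TMPRSS6 had the largest fitted rise in all 3 contrasts, but on 12 to 27 counts per CKI library, 9 to 11 per Kushen library and 1 to 2 per Baituling library. Its call in CKI against Kushen was lost with DESeq2 (adjusted p 0.117) and without CKI replicate 1 or 2 or Kushen replicate 1 or 2 (0.80 to 0.97). HFE and FBXL5 each overlap a coding gene on the opposite strand.

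Of 5 genes of iron chaperoning and ferritin turnover, 2 were lower in both contrasts with Baituling, PCBP1 and PCBP2, which hand iron to ferritin and also bind RNA. PCBP1 fell by 0.85 ± 0.05 on the log2 scale in Kushen against Baituling and by 0.999 ± 0.05 in CKI against Baituling (edgeR adjusted p 2.24e-11 and 1.38e-12), from 409 ± 15.6 CPM in Baituling to 228 ± 14.1 in Kushen and 205 ± 12.7 in CKI. In CKI against Kushen 3 of the 5 were lower, with the largest fall for PCBP2 (-0.27 ± 0.05), which overlaps a coding gene on the opposite strand. Against Baituling the ferritin transcripts rose and those of PCBP1 and PCBP2 fell, while all 4 were lower in CKI than in Kushen. For PCBP1 the latter difference was -0.15 ± 0.05 (edgeR adjusted p 0.0267), and its CKI and Kushen libraries overlapped. Library totals gave 3 higher and 2 lower in both contrasts with Baituling, and 1 lower (PCBP2) in CKI against Kushen.

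Iron-sulfur clusters are the other main use of mitochondrial iron. Of 19 mitochondrial genes of iron import and cluster assembly, 6 were higher and 8 lower in Kushen against Baituling and 5 higher and 10 lower in CKI against Baituling, while 3 were lower in CKI against Kushen. Library totals gave 10 higher and 7 lower in both contrasts with Baituling, and 4 higher and 2 lower in CKI against Kushen. ISCA1 had the largest rise (0.65 ± 0.06 and 0.71 ± 0.06), FDXR, the reductase that feeds electrons to cluster synthesis, the largest fall (-1.04 ± 0.08 and -1.05 ± 0.08), and ABCB10 the largest fall in CKI against Kushen (-0.36 ± 0.06). Of 9 cytosolic genes, 1 was higher and 7 lower in Kushen against Baituling, 1 higher and 6 lower in CKI against Baituling, and 2 lower in CKI against Kushen. Library totals gave 1 higher and 4 lower, 2 higher and 4 lower, and 2 each way in that order. CIAO1 had the one rise (0.26 ± 0.05 and 0.23 ± 0.05). The largest falls were those of NUBP2 in Kushen against Baituling (-0.55 ± 0.07) and of NUBP1 in CKI against Baituling (-0.86 ± 0.07) and in CKI against Kushen (-0.42 ± 0.07). NUBP1 and NUBP2 each overlap a coding gene on the opposite strand.

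**Figure D4:**
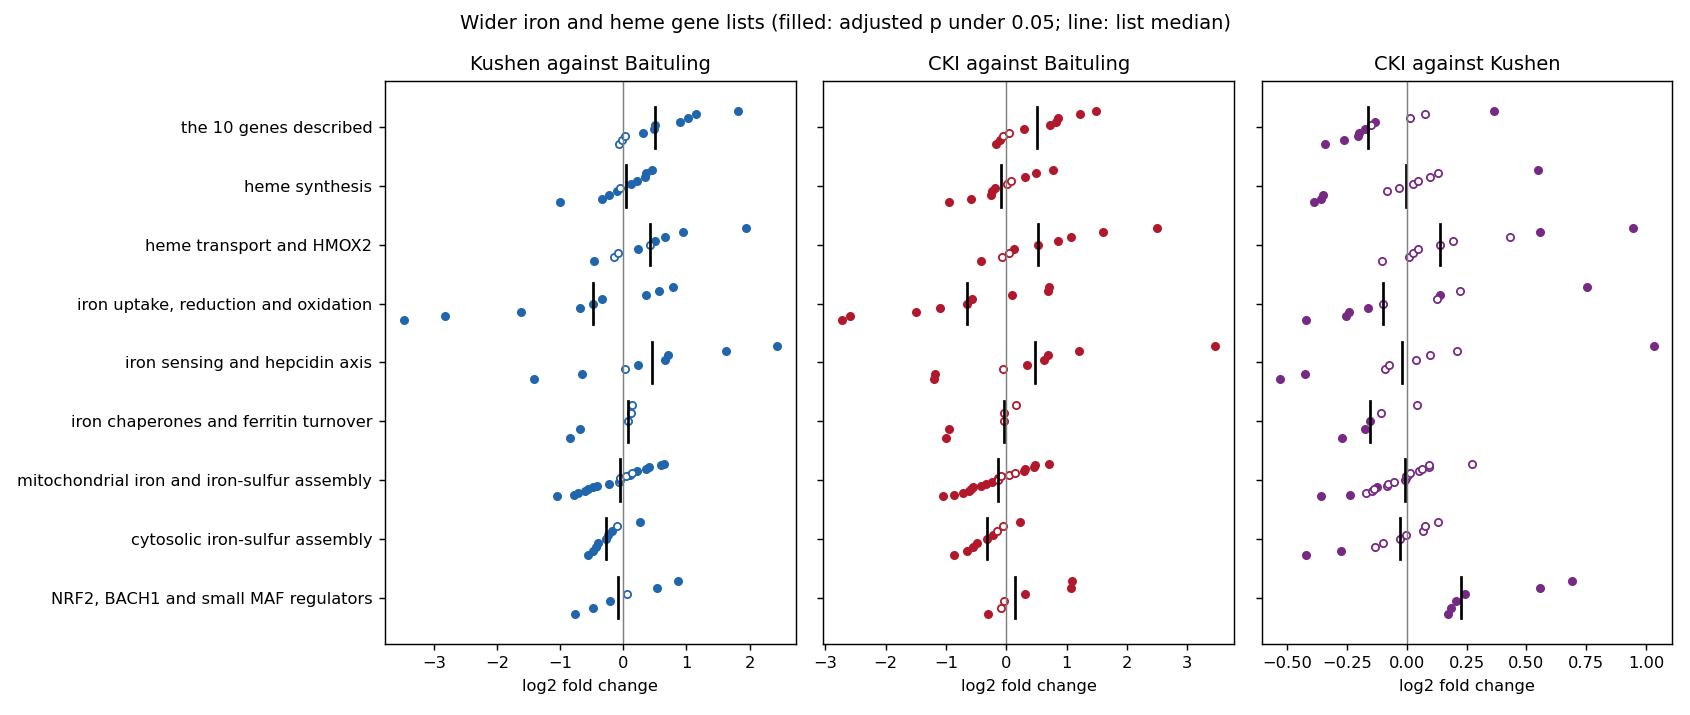
Log2 fold changes of the 10 genes described and of the 75 tested genes of 8 wider lists in the 3 contrasts (a different scale in each panel), with filled symbols for an adjusted p under 0.05 and a black line at each list's median. The median of the 10 genes lies near 0.5 in both contrasts with Baituling, and all 6 regulators in the bottom row lie right of 0 in CKI against Kushen.

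The regulators of HMOX1 and ferritin transcription were examined as the last list. All 6 of NFE2L2 (NRF2), KEAP1, BACH1, MAFF, MAFG and MAFK were higher in CKI than in Kushen, with a median log2 fold change of 0.23 and the largest rise for MAFF (0.69 ± 0.06, edgeR adjusted p 9.00e-08). NFE2L2 rose by 0.24 ± 0.04 and BACH1 by 0.18 ± 0.05 in that contrast. Against Baituling, 2 were higher and 3 lower in Kushen, and 3 higher and 1 lower in CKI, which library totals changed to 3 and 2, and to 5 higher. MAFG had the largest rise in Kushen (0.87 ± 0.05) and MAFK in CKI (1.09 ± 0.08), while MAFF had the largest fall in Kushen (-0.77 ± 0.06) and KEAP1, the NRF2 inhibitor, in CKI (-0.31 ± 0.05). NFE2L2 gave 0.06 ± 0.04 in Kushen and rose by 0.30 ± 0.04 in CKI. Over the 18 alternatives the Kushen value of NFE2L2 ranged from 0.04 to 0.27, and in 16 of them it did not pass. BACH1 fell by 0.22 ± 0.05 on the log2 scale in Kushen and gave -0.03 ± 0.05 in CKI. Library totals ended the calls of BACH1 in Kushen (-0.004, adjusted p 0.952) and of KEAP1 in CKI (-0.02, adjusted p 0.722), and turned BACH1 in CKI to 0.26. NFE2L2, BACH1, MAFF and MAFK overlap coding genes on the opposite strand, and MAFG overlaps SIRT7 on the same strand.

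HMOX1 and the ferritin genes are known targets of NRF2 and BACH1. The 10 kb before each canonical transcript start was therefore searched on both strands for TGANTCAGC, with any base at N. It is a relaxed form of the core that NRF2 and BACH1 bind together with small MAF proteins. The motif occurred in 28.6% of 19894 coding genes and in 7 of the 10. HMOX1 held 7 matches, of which 2 overlap on opposite strands, and was the 1 gene of those searched with as many. Its matches include TGAATCAGC and TGATTCAGC as well as TGACTCAGC. Matches of the form TGACTCAGC are printed with 10 bases on each side, the motif in capitals, 5′ to 3′ on the strand of the match, build GRCh37.
HMOX1, 9073 bases upstream, minus strand of chr22:35768002-35768030: ctcgggaccgTGACTCAGCaggaaaaaca
HMOX1, 9015 bases upstream, minus strand of chr22:35768060-35768088: accgggaccgTGACTCAGCgaaaacagat
HMOX1, 8986 bases upstream, minus strand of chr22:35768089-35768117: ctctagaccgTGACTCAGCgaaaacagac
HMOX1, 3936 bases upstream, minus strand of chr22:35773139-35773167: gaggcactggTGACTCAGCaaaatctagc
FTL, 1363 bases upstream, plus strand of chr19:49467189-49467217: gagctcagcaTGACTCAGCagtcgctgcc
FTH1, 4413 bases upstream, plus strand of chr11:61739505-61739533: tgtcccaccgTGACTCAGCactctgctag
BLVRA, 1891 bases upstream, plus strand of chr7:43796374-43796402: tgtactggtcTGACTCAGCaagtgaacat
FECH, 283 bases upstream, plus strand of chr18:55254203-55254231: tcctcagccaTGACTCAGCaaataacttt
In Kushen against Baituling HMOX1 with 7 matches gave a log2 fold change of 0.49, and SLC11A2 and FECH with 2 gave 0.50 and -0.03. Genes with 1 match were FTL (1.82), FTH1 (1.02), TFRC (0.89) and BLVRA (0.31). Those with 0 were SLC40A1 (1.15), ACO1 (0.03) and BLVRB (-0.07). A relation between matches and change was not tested. A match in this window is a description of the sequence and no evidence of binding in these cells.

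**Figure D5:**
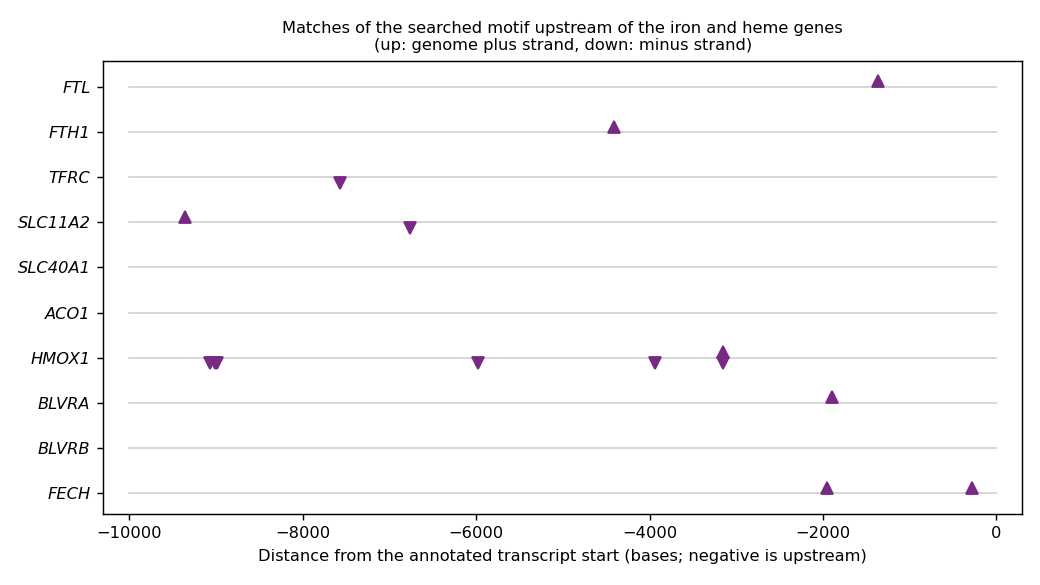
Positions of TGANTCAGC in the 10 kb before the annotated transcript start of each of the 10 genes, in bases from the start, with upward triangles for the plus strand of the genome and downward triangles for the minus strand. HMOX1 has 7 matches, 3 of them between 8986 and 9073 bases upstream, and SLC40A1, ACO1 and BLVRB have 0.

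Genes with the most similar profile over the 9 libraries were sought for HMOX1, FTL and TFRC among 11883 genes outside all lists whose log2 CPM averaged 1 or more. The measure was the root mean square difference of log2 CPM after centring each gene on its mean. For FTL the nearest were RAB26 (0.09), TXNRD1 (0.10) and TRIM16 (0.11), against a median of 0.82 over all candidates. TXNRD1, the cytosolic thioredoxin reductase, had mean levels of 444 CPM in Baituling, 1140 CPM in CKI and 1380 CPM in Kushen. For HMOX1 they were GCH1, which starts tetrahydrobiopterin synthesis (0.05), PGS1 (0.06) and WDR47 (0.06), against a median of 0.40. For TFRC they were KLHDC2 (0.04), GOLM2 (0.04) and PRDX1, a peroxiredoxin (0.05), against a median of 0.43. The 9 libraries fall into 3 groups, so the measure mostly compares 3 group levels.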

How the data were processed

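RNA of 9 libraries, 3 per injection, was sequenced as unstranded read pairs. Per the labels and methods, the authors trimmed reads with Trim Galore 0.3.7 and aligned them to hg19 with STAR 2.5.3a. The deposited table holds raw counts per gene. The counting program and annotation are not given in the sources used here. Genes were named from GENCODE on GRCh37, the assembly of hg19. Each Ensembl gene was used once (222 repeated rows were dropped). Columns were assigned by treatment initial and replicate number. Genes passing filterByExpr of edgeR 4.0.16 (minimum count 10, total 15; R 4.3.3) entered one quasi-likelihood fit of all 9 libraries with TMM scaling and group as the only term. Two-sided p-values were adjusted by Benjamini-Hochberg over 14195 genes. Fits were tested on simulated data in which few genes changed, so that test did not address the choice of scaling. The 10 genes, lists and tests were chosen with earlier results of these data known. Replicates of a group differed by more than sampling noise (chi-square per gene 1.7 to 6.85).

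Named from the wider lists were the largest rise and fall among passing genes of each list in each contrast, with ALAS1, IREB2, FBXL5, HMOX2, NFE2L2 and BACH1 in every case (NCOA4, also in this rule, was not analysed here). Alternatives were library totals, DESeq2 size factors, upper quartile scaling, other filters, DESeq2 1.42.0, fits of 2 groups, a replicate block, the rows as deposited and leaving out each library. Relative counting error was largest for SLC40A1, the lowest of the 10 at 92 counts, and smaller for genes with more counts.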

Additional observations from a re-analysis of the deposited data

How the results depend on the processing

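The size of most differences with Baituling depended on the scaling of the libraries. Library totals in place of TMM moved the median over all genes, on the log2 scale, by 0.29 in CKI against Baituling, 0.21 in Kushen against Baituling and 0.075 in CKI against Kushen. They raised the number of the 10 genes past the fold threshold in CKI against Baituling from 2 to 5, the one count of the 10 genes that moved by more than 1.5 times. For the wider lists the alternatives were counted at the adjusted p threshold, with 23 to 38, 57 to 67 and 57 to 64 genes in CKI against Kushen, CKI against Baituling and Kushen against Baituling. Over the 18 alternatives FTL stayed between 1.79 and 2.03 in Kushen against Baituling and between 1.44 and 1.77 in CKI against Baituling, and HMOX1 between 0.34 and 0.44 in CKI against Kushen. Of the recomputed fold changes of the 10 genes, 501 kept their direction and side of the threshold, 13 lost the call, 6 gained it and 20 changed sign.

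Changes of sign were found where differences were small. Under library totals these were FECH (0.11), ACO1 (0.18), BLVRB (0.23), HMOX2 (0.21), FBXL5 (0.23) and BACH1 (0.26) in CKI against Baituling, FECH (0.18), BLVRB (0.15) and HMOX2 (0.13) in Kushen against Baituling, and FBXL5 (0.00) in CKI against Kushen. Under upper quartile scaling they were BLVRB (0.017), FBXL5 (0.014) and BACH1 (0.039) in CKI against Baituling, and BLVRB (0.003) and FECH (0.042) in Kushen against Baituling. Requiring at least 10 counts in every library gave 0.012 for BACH1 in CKI against Baituling and 0.005 for FECH in Kushen against Baituling. DESeq2 and its size factors gave -0.002 for BLVRB and -0.006 for HMOX2 in CKI against Kushen. Leaving out single libraries gave ranges across 0 in CKI against Kushen for BLVRB (-0.010 to 0.047) and HMOX2 (-0.031 to 0.042), in CKI against Baituling for BLVRA (-0.008 to 0.084), BLVRB (-0.115 to 0.016) and BACH1 (-0.066 to 0.002), and in Kushen against Baituling for BLVRB (-0.127 to 0.012), FECH (-0.076 to 0.032) and ACO1 (-0.003 to 0.048). The causes were not tested.

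No pairing of libraries by replicate number was seen, although 3 libraries per group are too few to exclude it. Deviations of same-numbered libraries correlated between -0.075 and 0.123, and 2 of 9 libraries correlated best with their own number. With the replicate block 7, 8 and 7 of the 10 genes passed in CKI against Kushen, CKI against Baituling and Kushen against Baituling, and it changed no call of a gene named here.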
